A study of Mus musculus with 6 samples.

Results

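Sfrp1 and 8 other genes of Wnt signalling (Sfrp2, Dkk3, Wnt4, Wnt5a, Wnt7b, Wnt9b, Axin2 and Lef1) were followed in kidney RNA of diabetic mice. These 9 genes, of the 17684 listed in the deposited table, were chosen by their measured counts in the same 6 libraries, so their differences between the groups are given as a description and were not tested. All mice were db/db, which lack a working leptin receptor and become obese and diabetic, on the strain recorded as C57 BLKS/L, and were 50 weeks old. For 40 weeks, 3 of them were given normal saline (group Db) and the other 3 were given atorvastatin, an inhibitor of cholesterol synthesis, at 10 mg/kg per day (group Db + Ato10). Each mouse gave 1 library of whole kidney RNA, and lean controls were not analysed here. The libraries come from mice that were alive at the end of treatment. The total number of counts per library ranged from 11381678 to 14667909, and CPM below are counts scaled to the normalized size of each library. A gene with 3 counts has 0.198 to 0.260 CPM, depending on the library, and levels below that were not detectable, a limit that covers counting error only.

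Wnt proteins are secreted ligands that bind Frizzled receptors and the co-receptors Lrp5 and Lrp6. In the canonical branch this stops a destruction complex of Axin, Apc and Gsk3 from degrading β-catenin, which then acts with TCF/LEF factors on target genes, while other branches steer cell polarity and calcium. Secreted antagonists such as the Sfrp and Dkk families limit the ligands or their receptors, and in the kidney the pathway is known for forming nephrons and the collecting duct during development and for its renewed use in injured tubules and scars.

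Some libraries stood apart from the rest of their group. On the first principal component of log2 CPM, which held 71.0% of the variance, Db replicates 1 to 3 lay at -55.3, -26.6 and -51.8. Db + Ato10 replicates 1 and 2 lay far from them at 107 and 45.9, whereas the treated replicate 3, at -19.0, had Db replicate 2 as its neighbour. Across genes, the Spearman correlation with the Db mean was 0.848 in treated replicate 1, 0.939 in replicate 2 and 0.988 in replicate 3. Counts summed over 4 Y-linked genes were 2 in Db replicate 1 but at least 1419 in each of the remaining libraries, although by the study's methods only male mice were enrolled. For this reason values from fits that leave out a library are given beside the 9 genes, mostly for treated replicates 1 and 3 and Db replicate 1, and beside many of the other results.

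Sfrp1 was lower and Wnt4 higher in every Db + Ato10 library than in any Db library. The other 7 genes overlapped between the groups. Thus 1 of the 9 genes was higher without overlap, a pattern met by 12% of all 13679 genes tested, and 1 was lower without overlap, met by 11.3% of them. On the scale of the fitted log2 fold change, Db + Ato10 minus Db, 5 of the 9 genes lay above 0 and 4 below, with a median of 0.19 beside -0.0063 over all genes tested. Wnt9b, among the 5, lay at -0.0083 on the log2(TPM + 1) scale. All 9 genes passed the filter of at least 10 counts in at least 3 libraries, and their choice by these counts means that nothing is read from their directions.

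**Figure D1:**
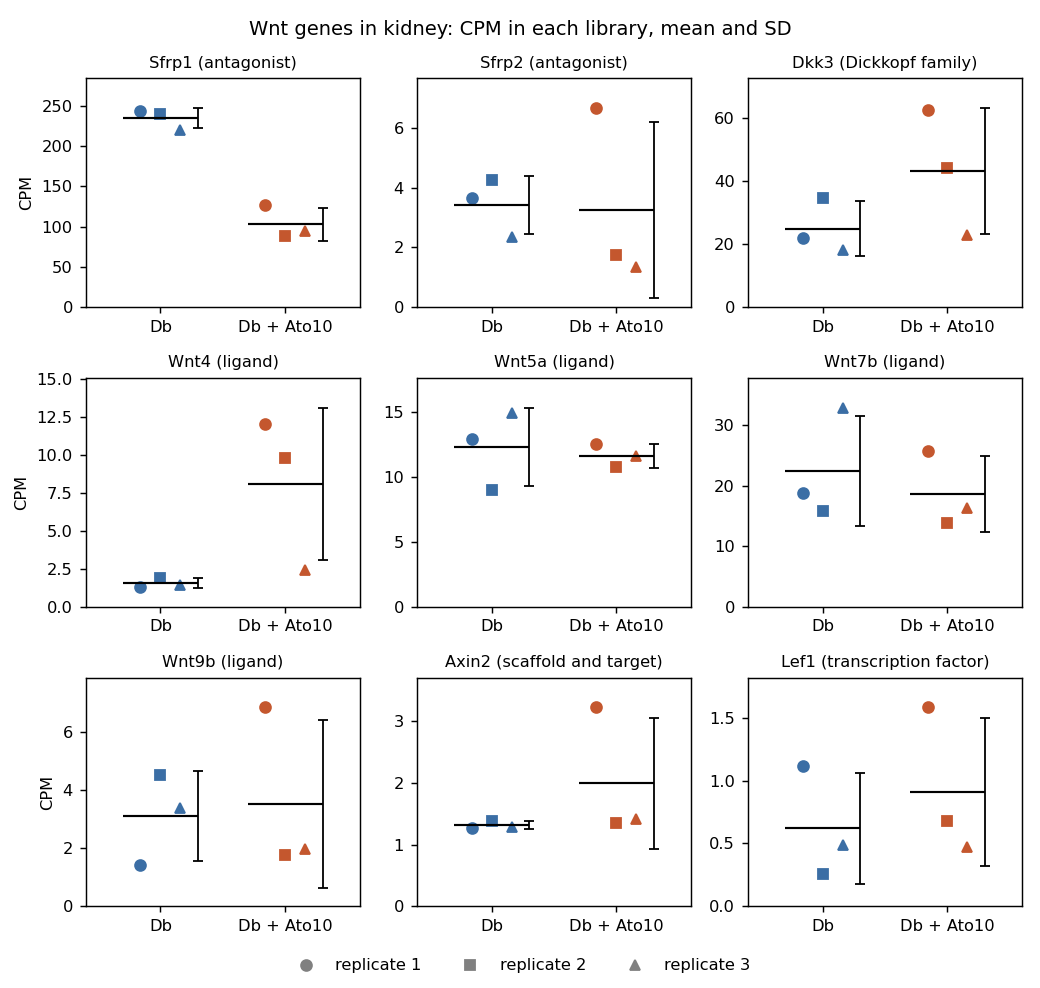
Normalised level (CPM, y axis from 0) of the 9 Wnt genes in each kidney library of the Db (blue) and Db + Ato10 (orange) groups, with marker shape for the replicate number, a line for the group mean and an error bar for the SD (n = 3). Sfrp1 lies between 220 and 243 CPM in the Db libraries and between 88.3 and 127 CPM in the Db + Ato10 libraries, and Wnt4 is the other gene whose groups do not overlap.

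Among the secreted antagonists, Sfrp1 was the most abundant of the 9 genes. Sfrp1 (NCBI Gene 20377) encodes a secreted Frizzled-related protein that binds Wnt ligands and Frizzled receptors outside the cell. It had 243, 240 and 220 CPM in Db replicates 1 to 3, and 127, 88.3 and 94.4 CPM in Db + Ato10 replicates 1 to 3. The Db libraries lay close together, and the highest Db + Ato10 library, replicate 1, still lay well under the lowest Db library. Averages over 3 libraries (± SD) were 235 ± 12.5 CPM with saline and 103 ± 20.6 CPM with atorvastatin. The Db mean was 2.28 times the Db + Ato10 mean, a log2 fold change of -1.19, and this difference exceeded the SD within either group. In bulk tissue, fewer cells of a type that makes Sfrp1 and less Sfrp1 RNA per cell cannot be told apart.

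The size of the Sfrp1 difference depended little on the libraries that stood apart. As a log2 fold change it was -1.15 when Db replicate 1 was left out, -1.36 when Db + Ato10 replicate 1 was left out and -1.12 when Db + Ato10 replicate 3 was left out. Unlike the levels of Wnt4 and Dkk3 given below, the low level of Sfrp1 was about as marked in Db + Ato10 replicate 3 as in replicate 2. On the deposited TPM scale, which allows levels of different genes to be compared per length, Sfrp1 ranked between 1599 and 1847 among all genes in the Db libraries and between 2987 and 3957 in the Db + Ato10 libraries. In the transcript table, which lists 2 Sfrp1 transcripts, a single one held all Sfrp1 counts in 4 libraries, 91.8% in Db replicate 3 and 97.3% in Db + Ato10 replicate 1. The lower gene count was thus a lower count of that transcript.

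Sfrp2, a close relative that also binds Wnt ligands, was far less abundant. It had 3.66, 4.25 and 2.34 CPM in Db replicates 1 to 3 and 6.65, 1.76 and 1.34 CPM in Db + Ato10 replicates 1 to 3. Db + Ato10 replicate 1 was the highest of all libraries and the other 2 treated libraries were the lowest. The means of 3.42 ± 0.975 CPM (SD, n = 3) and 3.25 ± 2.95 CPM (SD, n = 3) therefore differed by less than the spread between replicates. The log2 fold change of -0.065 became -1.13 without Db + Ato10 replicate 1, 0.31 without treated replicate 3 and 0.0042 without Db replicate 1, so its sign turned.

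Dkk3 belongs to the Dickkopf family of secreted proteins, but its action on the Wnt co-receptors is less clear than that of Dkk1. Its level was 21.9, 34.6 and 18.1 CPM in Db replicates 1 to 3, and 62.6, 44.0 and 22.9 CPM in Db + Ato10 replicates 1 to 3. Treated replicates 1 and 2 were above every Db library, and treated replicate 3 was under Db replicate 2, so the groups overlapped. The means were 24.8 ± 8.64 CPM (SD, n = 3) and 43.2 ± 19.9 CPM (SD, n = 3), and the log2 fold change of 0.80 fell within the range of 0.44 without Db + Ato10 replicate 1 to 1.11 without Db replicate 2, and was 1.11 without treated replicate 3 and 0.73 without Db replicate 1.

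Sfrp1 made up nearly all of the Sfrp family's RNA in the Db kidneys. Per length, Sfrp1 held 91.9%, 89.6% and 88.9% of the summed TPM of Sfrp1, Sfrp2, Sfrp4, Sfrp5 and Frzb in Db replicates 1 to 3. In Db + Ato10 replicates 1 to 3 it held 73.7%, 78.5% and 77.1%. The summed TPM of the family was 105, 107 and 98.1 in the Db libraries and 61.1, 44.4 and 45.7 in the Db + Ato10 libraries. The family sum was thus lower in every treated library than in any Db library. Frzb, the next member by TPM in the family, averaged 6.55 ± 1.70 TPM with saline and 8.21 ± 1.75 TPM with atorvastatin (SD, n = 3 each). The groups of Frzb overlapped, as did those of Sfrp2 and Sfrp5. Sfrp4, too scarce to be tested, was above every Db library in all treated ones. It had 0.25, 0.09 and 0.08 TPM in Db replicates 1 to 3 and 0.55, 0.49 and 0.46 TPM in Db + Ato10 replicates 1 to 3. Among the antagonists listed, the mean TPM of Sfrp1 in the Db group (93.1) was exceeded by that of Igfbp4 (885) and that of Sostdc1 (189). In each Db library Igfbp4 was above Sostdc1 and Sostdc1 above Sfrp1, by more than the spread between replicates.

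Of the 4 ligands among the 9 genes, Wnt4 had the largest log2 fold change. Wnt4 (NCBI Gene 22417) drives the conversion of mesenchyme into epithelium when nephrons form, and is known to be expressed again after injury. It had 1.27, 1.91 and 1.45 CPM in Db replicates 1 to 3, from 16 to 22 counts, and 12, 9.79 and 2.44 CPM in Db + Ato10 replicates 1 to 3, from 182, 145 and 31 counts. Treated replicates 1 and 2 were high, and treated replicate 3 was only just above the highest Db library. The means were 1.54 ± 0.327 CPM (SD, n = 3) and 8.07 ± 5.0 CPM (SD, n = 3), a ratio of 5.23 and a log2 fold change of 2.38. The mean difference was larger than the SD of the treated group, and the log2 fold change was 2.28 without Db replicate 1, 1.99 without treated replicate 1 and 2.82 without treated replicate 3. On scales that add 1 before the logarithm, which shrink differences of scarce genes, it was 1.07 for log2(FPKM + 1) and 1.25 for log2(TPM + 1). Wnt4 was the only one of the 9 genes with deposited counts that were not whole, which are estimates, and its 1 listed transcript held all of them.

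Wnt5a signals mostly through the branches that do not use β-catenin. Its level was 13.0, 9.02 and 14.9 CPM in Db replicates 1 to 3 and 12.5, 10.7 and 11.6 CPM in Db + Ato10 replicates 1 to 3. All treated libraries lay inside the range of the Db libraries. The log2 fold change was -0.084, with a range of -0.26 to 0.079 when each library was left out in turn, and lay at -0.14 without treated replicate 1.

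Wnt7b is made by the collecting duct and is needed for the medulla to form. It was counted at 18.8, 15.9 and 32.9 CPM in Db replicates 1 to 3 and at 25.8, 13.8 and 16.3 CPM in Db + Ato10 replicates 1 to 3. The highest library was Db replicate 3, and the groups overlapped. Its log2 fold change of -0.27 turned to 0.11 without Db replicate 3 and was -0.58 without Db + Ato10 replicate 1 and -0.38 if Db replicate 1 was left out.

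Wnt9b, which acts upstream of Wnt4 when the ureteric bud induces nephrons, was scarce. It had 1.43, 4.51 and 3.39 CPM in Db replicates 1 to 3 and 6.85, 1.76 and 1.97 CPM in Db + Ato10 replicates 1 to 3. As with Sfrp2, Db + Ato10 replicate 1 was the highest library, while the other 2 treated libraries lay within the range of the Db group. Leaving out Db + Ato10 replicate 1 turned the log2 fold change of 0.19 to -0.73, and leaving out Db replicate 1 turned it to -0.14, while it was 0.49 without treated replicate 3.

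Per length, Wnt7b was the most abundant of the 4 ligands followed here in each library. Its mean was 11.7 ± 4.72 TPM (SD, n = 3) in the Db group, above Wnt5a at 4.87 ± 0.991 TPM, Wnt9b at 1.19 ± 0.597 TPM and Wnt4 at 0.707 ± 0.146 TPM. In the Db libraries the ranges of Wnt7b and Wnt5a did not touch, nor did those of Wnt5a and Wnt9b, whereas those of Wnt9b and Wnt4 overlapped. In the Db + Ato10 group the order was Wnt7b at 9.02 ± 2.60 TPM, Wnt5a at 4.28 ± 0.139 TPM, Wnt4 at 3.47 ± 2.10 TPM and Wnt9b at 1.24 ± 0.959 TPM. Here Wnt5a and Wnt4 differed by less than the spread of Wnt4 between replicates. Over the 15 Wnt ligand genes listed in the table, the summed level was 27.1, 25.8 and 34.8 TPM in Db replicates 1 to 3 and 40.2, 30.4 and 27.8 TPM in Db + Ato10 replicates 1 to 3. The sums overlapped, but their makeup differed. Wnt4 held 2.17%, 3.37% and 1.90% of the sum in the Db libraries and 12.2%, 14.6% and 3.78% in the Db + Ato10 libraries.

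The last of the 9 genes report on the intracellular side of the pathway. Axin2 is a scaffold of the destruction complex and is itself a widely used target of β-catenin, so it acts as a brake that the pathway induces. It had 1.27, 1.39 and 1.29 CPM in Db replicates 1 to 3, each from 16 counts, and 3.23, 1.35 and 1.42 CPM in Db + Ato10 replicates 1 to 3. Only Db + Ato10 replicate 1 stood clear of the Db libraries. The means were 1.32 ± 0.0615 CPM (SD, n = 3) and 2.0 ± 1.06 CPM (SD, n = 3), and the log2 fold change of 0.60 was 0.076 without Db + Ato10 replicate 1 but 0.59 if Db replicate 1 was left out and 0.81 if treated replicate 3 was left out.

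Lef1, a DNA-binding partner of β-catenin, had the fewest counts of the 9 genes in every library. It had 14, 3 and 6 counts in Db replicates 1 to 3 and 24, 10 and 6 counts in Db + Ato10 replicates 1 to 3, which gives 1.11, 0.260 and 0.485 CPM and 1.58, 0.675 and 0.473 CPM. Db replicate 2 was at the level of 3 counts, and the groups overlapped. Leaving out Db + Ato10 replicate 1 turned the log2 fold change of 0.55 to -0.11. Leaving out Db replicate 1 raised it to 1.28 and treated replicate 3 to 0.85, so the sign and size for Lef1 depended on single libraries.

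Genes whose profile over the 6 libraries was most like that of Sfrp1 were sought among 13388 tested genes with a mean of at least 1 CPM. Likeness was the root mean square difference of log2 CPM after each gene was centred on its own mean. The closest was Rhbg, an ammonium transporter, at 0.12, followed by Klhl11 (0.13), Gm46840 (0.14), Cldn8 (0.16), a claudin of tight junctions, and Capn6 (0.17). Rhbg had 73.2, 62.7 and 55.7 CPM in Db replicates 1 to 3 and 40.5, 24.5 and 28.4 CPM in Db + Ato10 replicates 1 to 3, and thus shared the high first treated replicate and the low second one with Sfrp1. Among the 106 Wnt genes compared in the same way, Tle2 (0.27), Sostdc1 (0.29) and Fzd4 (0.35) were closest to Sfrp1. Nothing about function or control follows from likeness over 6 libraries.

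The rest of the pathway was described by lists of 130 genes by role, which leave out the 9 genes above. Of these, 123 had a gene in the table and 102 were tested. With edgeR's quasi-likelihood test and Benjamini-Hochberg adjustment, 0 of the 102 genes had a fold change over 1.5 with an adjusted p-value under 0.05 (0% of all 13679 genes, of which 2314 had an unadjusted p-value under 0.05). Before adjustment, 18 genes had a p-value under 0.05 and were higher in the Db + Ato10 group (17.6%, beside 11.2% of all genes) and 10 were lower (9.80%, beside 5.71% of all genes). DESeq2 called 13 of the 102 with the same criteria, beside 6.46% of all genes (884 genes). With edgeR and without Db + Ato10 replicate 3, 11 of the 102 were called, beside 9.04% of all genes (1236 genes). The 28 genes at an unadjusted p-value under 0.05 became 17 when Db replicate 1 was left out, 18 when Db replicate 3 was left out and 17 when Db + Ato10 replicate 1 was left out, while the share of all genes fell from 16.9% to 7.76%, 8.29% and 12.8%. Over all 102 genes the median log2 fold change was 0.038, beside -0.0063 over all genes tested. The lists together held both directions, and differences between roles were not tested.

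**Figure D2:**
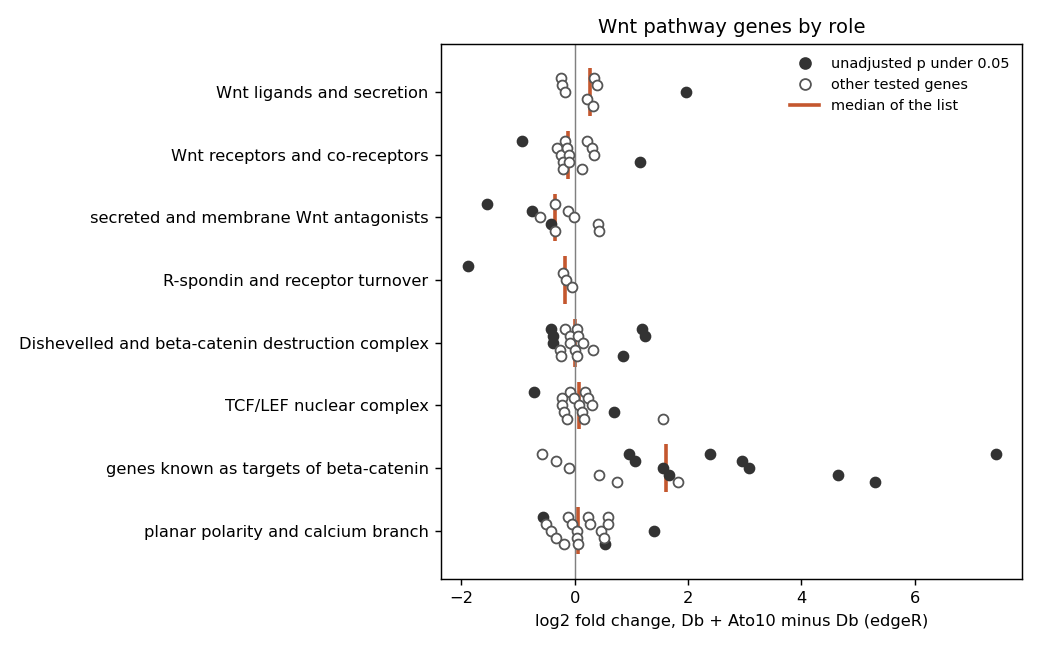
Fitted log2 fold change (x axis, Db + Ato10 minus Db, edgeR) of each of the 102 tested genes of the Wnt pathway, by role (y axis), with filled points for an unadjusted p-value under 0.05 and an orange line for the median of each list. The targets of β-catenin reach from below 0 to 7.43 with a median of 1.61, while the medians of the other lists lie between -0.34 and 0.28.

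Among the other secreted and membrane antagonists, 3 of 10 tested genes were lower at an unadjusted p-value under 0.05 (30%, beside 5.71% of all genes). In the other direction 0 were higher, beside 11.2% of all genes, and the median log2 fold change was -0.34. Without treated replicate 1 only 1 of the 10 was lower and the median was -0.17. These 3 were Sost, Sostdc1 and Trabd2b, and each was lower in CPM in all 3 treated libraries than in any Db library, though the groups of Trabd2b overlapped in TPM. Sostdc1 encodes a secreted antagonist of BMP and Wnt signals that is abundant in the distal nephron. It had 161, 173 and 206 CPM in the Db libraries and 119, 106 and 94.4 CPM in the treated ones. Its log2 fold change was -0.76 (standard error 0.16, edgeR adjusted p = 0.239, DESeq2 adjusted p = 0.00411). Sost encodes sclerostin, a ligand of Lrp5 and Lrp6. It had 5.17, 1.73 and 2.75 CPM in the Db libraries and 0.922, 0.743 and 1.65 CPM in the treated ones. The log2 fold change of Sost was -1.54 (edgeR adjusted p = 0.246, DESeq2 adjusted p = 0.111) and -1.01 without Db replicate 1. Trabd2b, a membrane protease that cleaves Wnt proteins, had a log2 fold change of -0.43 (edgeR adjusted p = 0.293, DESeq2 adjusted p = 0.249). Notum, which removes the lipid from Wnt proteins, overlapped between the groups at -0.34, and its sign turned without Db + Ato10 replicate 1 (0.076).

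Of 8 tested genes for other ligands and for secretion, 1 was higher at an unadjusted p-value under 0.05 (12.5%, beside 11.2% of all genes). In the other direction 0 were lower, beside 5.71% of all genes, and the median was 0.28. The higher gene was Wnt10a, a canonical ligand, which had 1.11, 1.56 and 1.78 CPM in the Db libraries and 9.81, 5.47 and 2.05 CPM in the treated ones. Its log2 fold change was 1.96 (standard error 0.59, edgeR adjusted p = 0.239, DESeq2 adjusted p = 0.0348). Without treated replicate 1 it was 1.35, and as with Wnt4, treated replicate 3 was only just above the Db range. Without Db replicate 1, 0 of the 8 genes were higher and the median of the list was 0.035. That median was 0.10 without treated replicate 1 and -0.15 over the 5 genes with at least 10 counts in every library. The ligands depend on Porcn, which attaches their lipid, and on Wls, which carries them to the cell surface. Porcn overlapped between the groups, with a log2 fold change of -0.18 that ran from -0.34 to -0.030 over the fits without a library. Wls was below every Db library in all 3 treated libraries by a small margin (-0.25, edgeR adjusted p = 0.367). Wnt7a was too low to be tested, with 0 counts in each Db library and 19, 17 and 3 counts in Db + Ato10 replicates 1 to 3, and is named here after its values were seen.

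Of 14 tested receptors and co-receptors, 1 was higher at an unadjusted p-value under 0.05 (7.14%, beside 11.2% of all genes). Another 1 was lower (7.14%, beside 5.71% of all genes), and the median was -0.12. The lower one was Fzd4, a Frizzled receptor, with 74.0, 64.4 and 62.1 CPM in the Db libraries and 27.6, 34.1 and 43.3 CPM in the treated ones. Its log2 fold change was -0.93 (standard error 0.19, edgeR adjusted p = 0.239, DESeq2 adjusted p = 0.00458), with all 3 treated libraries below every Db library. The higher one was Ptk7, a co-receptor of the polarity branch, at 1.16. Ptk7 lies outside the rule for naming and is named after its values were seen. R-spondins and their receptors set how many Frizzled receptors reach the surface. Of 4 tested genes of this list 0 were higher (beside 11.2% of all genes) and 1 lower (25%, beside 5.71%). The median of the list was -0.18. The lower gene was Lgr6, an R-spondin receptor. It had 18, 11 and 27 counts in the Db libraries and 4, 5 and 8 counts in the treated ones. Its log2 fold change was -1.89 with no overlap (edgeR adjusted p = 0.239, DESeq2 adjusted p = 0.0707). Lgr6 passed the filter only through the Db libraries, so nothing is read from its p-values or from this count of 1. With at least 10 counts in every library, 0 of 3 tested genes of this list were lower. Lgr5 was too low to be tested, at 8, 10 and 9 counts and 6, 5 and 7 counts. Rnf43 and Znrf3, ubiquitin ligases that remove Frizzled receptors, had log2 fold changes of -0.20 and -0.056 with overlapping groups, and Znrf3 turned to 0.038 without Db replicate 2.

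Inside the cell, 3 of 17 tested genes of Dishevelled and the destruction complex were higher and 3 lower at an unadjusted p-value under 0.05. Each count was 17.6% of the list, beside 11.2% of all genes higher and 5.71% lower, and the median was 0.0043. Both counts were 0 without treated replicate 1, and also without Db replicate 2. The RNA of β-catenin itself, Ctnnb1, was 422, 353 and 359 CPM in the Db libraries and 380, 399 and 358 CPM in the treated ones. These ranges overlapped and the log2 fold change was 0.0043 (edgeR adjusted p = 0.991). Its sign changed with the setting. RNA levels say nothing of how much β-catenin protein is stable. Frat1 and Frat2, which bind Gsk3 and take it out of the complex, were above every Db library in all 3 treated libraries. Their log2 fold changes were 1.23 and 1.18, or 0.67 and 0.93 without treated replicate 1. Frat2 passed the filter only with the group where it was higher, so nothing is read from its p-value. Lower in all 3 treated libraries were Btrc (-0.41), the ubiquitin ligase that marks β-catenin, Dvl3 (-0.39), which passes the signal on from Frizzled, and Apc (-0.38). The edgeR adjusted p-values of these 5 genes ran from 0.247 to 0.283, and DESeq2 called 0 of the 17 genes of this list.

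In the TCF/LEF nuclear complex 1 of 15 tested genes was higher and 1 lower at an unadjusted p-value under 0.05. Each count was 6.67% of the list, beside 11.2% of all genes higher and 5.71% lower, and the median was 0.081. This median turned to -0.034 without treated replicate 1, and was 0.027 without Db replicate 1 and 0.16 without treated replicate 3. The lower gene was Tle2, a co-repressor of the Groucho family, with 19.1, 23.1 and 20.7 CPM in the Db libraries and 14.3, 11.5 and 12.1 CPM in the treated ones. The treated libraries were all below the Db ones, with a log2 fold change of -0.73 (edgeR adjusted p = 0.239, DESeq2 adjusted p = 0.0120). The higher gene was Tle3, of the same family, at 0.70, named after its values were seen. Tcf7, a relative of Lef1, had 0.795, 0.780 and 1.62 CPM in the Db libraries and 5.86, 2.70 and 0.866 CPM in the treated ones, so that treated replicate 3 lay inside the Db range. The log2 fold change of Tcf7 was 1.56 (edgeR adjusted p = 0.322) and 0.76 without treated replicate 1, whereas that of Tcf7l2 was 0.081 (edgeR adjusted p = 0.841), and -0.062 without Db replicate 1.

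The list of genes known as targets of β-catenin had the largest median of the lists, but like the other lists it was chosen with earlier results of these data known, and no test compared it with them. Of 16 tested, 10 were higher (62.5%, beside 11.2% of all genes) and 0 lower at an unadjusted p-value under 0.05. The median log2 fold change was 1.61. Mmp7 and Nkd2, among the 10, passed the filter only with the group where they were higher, so nothing is read from their p-values. Ccnd1, a cell cycle gene named after its values were seen, was lower in all 3 treated libraries than in any Db library (log2 fold change -0.58, edgeR adjusted p = 0.330). Over the fits without a library, 8 to 13 of the 16 were higher at this threshold, beside 5.15% to 17.3% of all genes, and the 13 came from the fit without treated replicate 3, where that share was highest. With limma-voom 4 of the 16 were higher, beside 6.62% of all genes. On the log2(TPM + 1) scale 8 were higher, beside 6.67% of all genes, and 1 was lower. With at least 10 counts in every library 8 of 13 were higher, beside 10.6% of all genes. The median was 1.14 without treated replicate 1, 0.89 on the log2(FPKM + 1) scale and 0.87 on the log2(TPM + 1) scale. The largest difference was that of Mmp7, a matrix protease made by injured tubules, which had 0, 19 and 0 counts in Db replicates 1 to 3 and 3087, 1026 and 86 counts in Db + Ato10 replicates 1 to 3. All Mmp7 counts of the Db group came from replicate 2. All 3 treated libraries were above the Db ones, with a fitted log2 fold change of 7.43 (edgeR adjusted p = 0.239, DESeq2 adjusted p = 0.0390). It was 6.16 without treated replicate 1 and 8.0 without treated replicate 3, and no fold can be given without Db replicate 2, since the Db group then has 0 counts. Cd44, a receptor for hyaluronan, had 1.43, 4.85 and 1.29 CPM in the Db libraries and 236, 52.7 and 6.38 CPM in the treated ones. The log2 fold change of 5.29 (edgeR adjusted p = 0.239, DESeq2 adjusted p = 8.48e-05) was 3.57 without Db + Ato10 replicate 1.

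Other targets followed the same order of libraries. Fn1, the matrix protein fibronectin, had 26.1, 33.6 and 15.5 CPM in the Db libraries and 444, 148 and 37.6 CPM in the treated ones, a log2 fold change of 3.07 that was 1.90 without treated replicate 1. Plaur, the urokinase receptor, Ccn4, a matricellular protein listed under its older name Wisp1, and the growth factor Fgf18 had log2 fold changes of 2.39, 1.56 and 1.66, which without treated replicate 1 were 1.39, 1.18 and 1.99. For Fgf18 the order differed, since Db + Ato10 replicate 1 was the lowest treated library, with 1.84 CPM beside 4.52 and 4.80. The edgeR adjusted p-value was 0.239 for each of these 4 genes, which were above every Db library in all 3 treated libraries, and DESeq2 called all 4. Many of these targets are also genes of scarring and inflammation and answer to pathways other than Wnt.

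The targets that are feedback inhibitors of the pathway were of interest beside Axin2. Nkd2, which binds Dishevelled, had 7, 10 and 8 counts in the Db libraries and 112, 102 and 23 counts in the treated ones. Its log2 fold change was 2.95 (standard error 0.60, edgeR adjusted p = 0.239, DESeq2 adjusted p = 0.000975). Nkd2 passed the filter only with the group where it was higher, so nothing is read from its p-values. Its relative Nkd1 had 3.34, 3.55 and 2.75 CPM and 10.8, 4.79 and 4.57 CPM. The log2 fold change of Nkd1 was 1.07 (standard error 0.40, edgeR adjusted p = 0.271, DESeq2 adjusted p = 0.156) and 0.55 without treated replicate 1. Both were thus above every Db library in all 3 treated libraries. Sp5, a transcription factor that is a direct target, had 8.03, 9.54 and 9.85 CPM and 5.27, 9.12 and 11.3 CPM. Its groups overlapped, and its log2 fold change of -0.097 turned to 0.16 without Db + Ato10 replicate 1. Axin2, Nkd1, Nkd2 and Sp5, often read together as feedback genes, therefore did not share a pattern over the 6 libraries.

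In the planar polarity and calcium branch 2 of 18 tested genes were higher at an unadjusted p-value under 0.05 (11.1%, beside 11.2% of all genes). In the other direction 1 was lower (5.56%, beside 5.71% of all genes), and the median was 0.053. Both counts were 0 without Db replicate 1, and also without Db replicate 3. The count of higher genes was also 0 without treated replicate 1 and on the log2(TPM + 1) scale. Nfatc4, a transcription factor that calcium activates, was above every Db library in CPM, but not in TPM, in all 3 treated libraries at 1.40 (edgeR adjusted p = 0.280) and 0.70 without treated replicate 1, with 2.28 CPM in treated replicate 3 beside 2.18 CPM in Db replicate 3. Celsr2 is an adhesion receptor of cell polarity. It had 91.1, 81.9 and 99.6 CPM in the Db libraries and 68.0, 48.1 and 68.7 CPM in the treated ones. The log2 fold change of Celsr2 was -0.56 (edgeR adjusted p = 0.239, DESeq2 adjusted p = 0.126). DESeq2 called 0 of the 18 genes of this list.

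Markers of cell types moved with these genes. The 8 principal cell markers of the collecting duct were all lower on average in the treated group, as were 5 of 5 intercalated cell and 4 of 4 thick ascending limb markers. Their summed levels in Db replicates 1 to 3 and then Db + Ato10 replicates 1 to 3 were 1021, 833, 1378, 756, 532 and 809 TPM for principal cells (most abundant over all 6 libraries Aqp2), 211, 158, 152, 129, 101 and 110 TPM for intercalated cells (Atp6v1g3), and 3447, 4041, 3688, 2340, 1182 and 2932 TPM for the thick ascending limb (Umod). Each of these sums was lower in every treated library than in any Db library, as was Sfrp1. Single markers were less uniform. The most abundant of each list, Aqp2, Atp6v1g3 and Umod, overlapped between the groups in CPM, as did Aqp4, Atp6v0d2 and Cldn16. The other markers of these lists did not overlap. None of these markers was at 0 in any library. The part of cell makeup in the level of Sfrp1, Sostdc1 and Fzd4 was not tested.

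The markers that were higher beside Wnt4, Dkk3 and the β-catenin targets were those of stroma, injured tubule, leukocytes and other epithelia. All 9 stroma and myofibroblast markers (most abundant over all 6 libraries Dcn, in the Db group Acta2) were higher on average, with sums of 65.2, 77.3 and 73.3 TPM in the Db libraries and 625, 215 and 101 TPM in the treated ones. All 7 injured tubule markers (Lcn2, in the Db group Krt7) were higher, with sums of 355, 515 and 365 TPM and 11674, 3018 and 1192 TPM, as were all 7 leukocyte markers (Cd68, in the Db group Csf1r), with 34.2, 45.2 and 39.2 TPM and 588, 150 and 51.4 TPM. Of the 10 markers of urothelium and squamous epithelium (Krt20, in the Db group Psca) 9 were higher, with sums of 15.1, 20.6 and 19.7 TPM and 241, 178 and 47.4 TPM, and of these markers 2 were at 0 in Db replicate 2 and 1 in Db replicate 3. The treated sums of all 4 lists had the order of Wnt4 and Dkk3, with replicate 1 highest and replicate 3 lowest. Single markers did not all share this order. Lcn2 held 10827, 2069 and 697 TPM of the injured tubule sums in Db + Ato10 replicates 1 to 3. Sox9, Krt18 and Krt7 were also highest in treated replicate 1, but Havcr1, Vcam1 and Krt8 were highest in treated replicate 2. The part of the cells of these lists in the Wnt gene levels was not tested.

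The remaining lists overlapped between the groups. The 7 proximal tubule markers (most abundant over all 6 libraries Slc34a1, in the treated group Slc27a2) were lower on average, with sums of 6479, 5651 and 6495 TPM in the Db libraries and 756, 3937 and 6641 TPM in the treated ones. Endothelial sums (Emcn) were 170, 146 and 165 TPM and 212, 86.7 and 152 TPM, with 1 of 4 markers higher in mean TPM. Cdh5, lower in mean TPM, had a fitted log2 fold change of 0.056. Podocyte and parietal cell sums (Podxl) were 213, 136 and 144 TPM and 207, 112 and 133 TPM, with 1 of 5 markers higher in mean TPM. Wt1 was also lower in mean TPM, but its fitted log2 fold change was 0.063. The proximal tubule sum of treated replicate 3 was above that of every Db library. The part of these cells in the level of Sfrp1 was not tested.

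**Figure D3:**
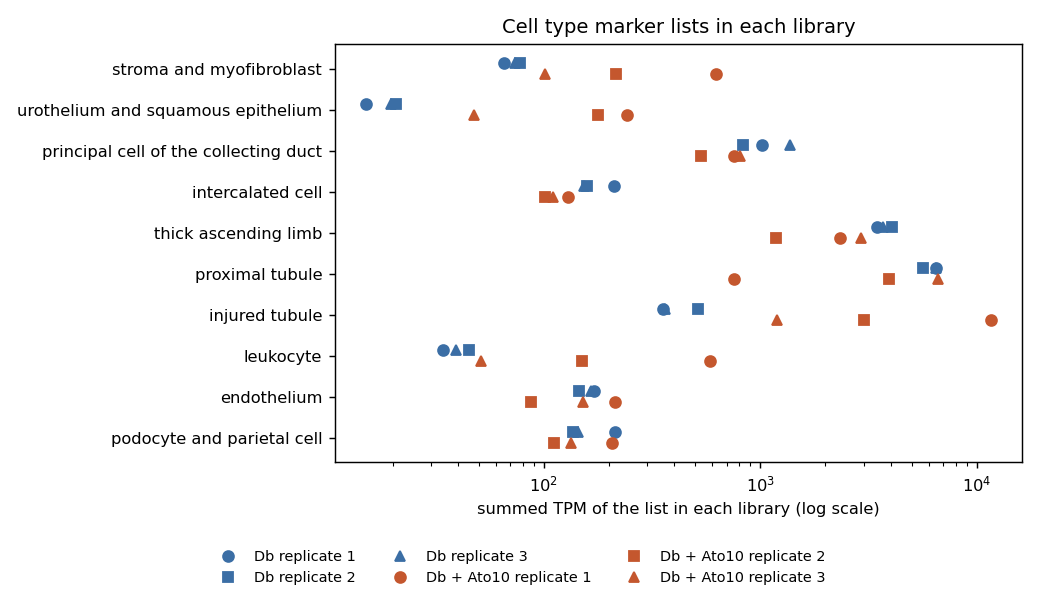
Summed TPM (x axis, log scale) of each list of cell type markers (y axis) in each library, with colour for the group and marker shape for the replicate number. Injured tubule sums reach 11674 TPM in Db + Ato10 replicate 1, and principal cell, intercalated cell and thick ascending limb sums are lower in each treated library than in any Db library.

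Promoter sequences were compared for short motifs that TCF/LEF factors are known to bind. The motifs searched were CTTTGAT and CTTTGTT on both strands (ATCAAAG and AACAAAG when read on the other strand), which cannot match at the same position. The windows ran from 250 bases before to 50 after each start in RefSeq's table of build GRCm38.p6. Of the 9 genes 5 had an entry, Sfrp2, Wnt4, Wnt9b, Axin2 and Lef1, and 0 matches were found in their windows. Sfrp1, Dkk3, Wnt5a and Wnt7b had no entry. Over all 32851 promoters, 3.73% held CTTTGAT, 5.85% held CTTTGTT and 9.33% held either. For the pathway lists, 12 of 114 promoter entries (10.5%) held a match, in 11 of 86 genes. The 250 bases before the start are shown for Wnt4 (chr4:137277385-137277634, plus strand), the ligand among the 9 genes whose groups did not overlap, and for Axin2 (chr11:108920099-108920348, plus strand), the feedback target. Their GC content was 85.2% and 69.2%, beside a median of 52.4% over all promoters. Below them are the surroundings of both matches before the start of Sp5 (chr2:70474689-70474719 and chr2:70474807-70474837, plus strand), the only one of these feedback genes with a match, with the motif in capitals. A match is a description of letters and not of binding.
Wnt4: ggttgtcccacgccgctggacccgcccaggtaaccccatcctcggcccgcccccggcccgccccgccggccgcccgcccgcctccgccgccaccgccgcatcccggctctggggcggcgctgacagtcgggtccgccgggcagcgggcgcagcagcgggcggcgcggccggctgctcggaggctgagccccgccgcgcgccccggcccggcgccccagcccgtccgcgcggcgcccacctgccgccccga
Axin2: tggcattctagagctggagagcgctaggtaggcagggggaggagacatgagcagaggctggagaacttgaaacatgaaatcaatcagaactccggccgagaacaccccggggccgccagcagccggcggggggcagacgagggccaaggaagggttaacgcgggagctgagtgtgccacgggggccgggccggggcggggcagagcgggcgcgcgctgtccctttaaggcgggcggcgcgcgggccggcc
Sp5 first match: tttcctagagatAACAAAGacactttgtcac
Sp5 second match: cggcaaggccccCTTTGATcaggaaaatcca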

How the data were processed

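Kidney RNA of 6 db/db mice, 3 given saline and 3 given atorvastatin, was sequenced on a BGISEQ-500. Expected counts, as deposited by the authors for genes and for transcripts, are estimates, and 91.3% of the gene values are whole numbers. The deposited FPKM values are scaled for transcript length and library size by the authors. The deposited TPM values are scaled by the authors for length and to a fixed sum. The submitters' notes name HISAT, Bowtie2 2.2.5 and build mm9 without saying which tool did what, and the counting tool is not given in the sources used here. Strand use is not given either, so reads of overlapping antisense genes cannot be told apart.

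Gene counts, of 17684 genes in the table and with 11381678 to 14667909 counts per library, were fitted with edgeR 4.0.16 (R 4.3.3) by its quasi-likelihood F test with TMM normalization, after a filter of at least 10 counts in at least 3 libraries that left 13679 genes, and p-values were adjusted by the Benjamini-Hochberg method. The label for the treatment protocol names atorvastatin for all 6 libraries, while the treatment recorded for each library separates saline from atorvastatin. Groups follow the latter, and Db + Ato10 was compared with Db. A gene counted as differing with a fold change over 1.5 and an adjusted p-value under 0.05. The fit was tested on simulated data, with a single setting of the spread between replicates for all genes and no library that stood apart. The simulation therefore does not show how the fit performs on these libraries.

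The 9 genes and all lists of pathway genes and markers were chosen with earlier results of these data known, and the 9 genes were described and not tested. Named from the pathway lists were genes whose groups did not overlap and whose unadjusted p-value was under 0.05, at most the 12 largest by log2 fold change in each direction, and 11 genes set by role. Wnt1, Wnt3, Wnt3a, Wnt8a, Dkk4, Cer1 and Rspo2 are not listed in the table.

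Alternatives were DESeq2 1.42.0, limma-voom and limma 3.58.1 on log2(FPKM + 1) and log2(TPM + 1), upper-quartile normalization, other filters, a replicate block, and fits without each library. Tables and figures were made with Python 3.11.15, pandas 2.3.3 and matplotlib 3.10.9. Columns holding the authors' group means were not used, and 0 columns of single samples were left without a library.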

Additional observations from a re-analysis of the deposited data

How the results depend on the processing

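The number of genes past both criteria was 0 with edgeR and 884 with DESeq2, and between 0 and 1236 when each library was left out in turn, reaching 1236 only without Db + Ato10 replicate 3. Of the 102 Wnt pathway genes, 28 had an unadjusted p-value under 0.05, with 17 to 33 over the fits without a library. Over the other settings there were 19 to 35, the highest of 123 genes tested with no filter beyond 1 count, and 23 of the 92 tested with at least 10 counts in every library. These 92 leave out Lgr6, Mmp7, Nkd2 and Frat2. Each passed the main filter only with the group where it was higher, so nothing is read from its p-value. With a replicate block the counts were 0 genes past both criteria and 25 of the 102, and the libraries share only a replicate number. The fold change of Sfrp1 kept its direction in all alternatives, from -1.36 to -1.08 without a library.

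Log2 fold changes near 0 turned their sign. Ctnnb1 (0.0043) was -0.019 with no filter beyond 1 count and -0.070 on log2(TPM + 1), and ran from -0.043 to 0.10 over the fits without a library. Over the same fits Tcf7l2 ran from -0.062 to 0.20, Znrf3 from -0.13 to 0.038, Notum from -0.73 to 0.076 and Sp5 from -0.34 to 0.16. The cause of these changes was not tested.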
